A study of Homo sapiens with 12 samples.

Results

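The genes described here are 39 regulators and executors of apoptosis: the BCL2 family, caspases, the proteins that caspase activation runs through, and the inhibitors that hold it back. They were chosen by symbol, and all 39 were found among the 59276 gene symbols with a value. RNA-seq was done on 12 samples of JJN3, a human multiple myeloma cell line, in 4 groups of 3 replicates. DMSO cells received the vehicle and MS023 cells received 10 µM MS023, an inhibitor of the type I protein arginine methyltransferases, for 3 days. The isgCtrl and PRMT1-KO cells expressed Cas9 with mCherry and an inducible guide from lentiviral vectors, were selected with puromycin, and were given doxycycline for 3 days. The guide of isgCtrl was a control guide, and that of PRMT1-KO was iPRMT1_1, which targets PRMT1, the main enzyme of that class. PRMT1-KO therefore stands for 1 guide in 1 cell line, in a selected population of cells and not in a clone. DMSO and MS023 cells carried neither Cas9 nor a guide. Nothing in the labels says that the replicates came from separate cultures, so the p-values measure the spread between these samples, which may be technical.

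Apoptosis in the mitochondrial pathway is set by the balance between BCL2 proteins. The pro-survival members (BCL2, BCL-XL, MCL1 and relatives) bind and hold the effectors BAX and BAK1, and BH3-only proteins such as BIM (BCL2L11), NOXA (PMAIP1), PUMA (BBC3) and BMF release them or activate them. Active effectors open the outer mitochondrial membrane, cytochrome c leaves and joins APAF1 in the apoptosome, and the apoptosome activates CASP9. Death receptors reach the caspases by another route, through FADD and CASP8, which the CASP8-like protein CFLAR holds in check. Plasma cells and myeloma cells are known to depend on MCL1.

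By role, 10 of the 39 genes were counted as pro-survival and 24 as pro-death, and 5 were put in neither class. The pro-survival genes are BCL2, BCL2L1, BCL2L2, MCL1, BCL2A1, BIRC2, BIRC3, BIRC6, XIAP and CFLAR. The 5 in neither class are the inflammatory caspases CASP1 and CASP4, the nuclease inhibitor and chaperone DFFA, and BCL2L13 and BCLAF1, for which mixed roles are described. Values are the deposited log2(TPM+1), where TPM is a relative transcript abundance that is corrected for transcript length and sums to a fixed total, so that levels can be set beside each other between genes. Each value is the RNA of a gene as a whole, so its transcript forms and its protein were not examined. A log2 fold change is a difference of group means on this scale, and it understates the change of genes near 1 TPM. A gene entered a comparison when at least one group had a mean log2(TPM+1) above 1, limma gave the test, and a gene was called when its Benjamini-Hochberg adjusted p over all genes tested was under 0.05 and its absolute log2 fold change above 0.48. This left 36 of the 39 genes in each comparison.

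PRMT1 itself was at 867, 863 and 849 TPM in isgCtrl and at 302, 309 and 301 TPM in PRMT1-KO, or 35.4% of the control (log2 fold change -1.50, adjusted p = 7.2e-04), and it was 653 ± 18.3 TPM in DMSO and 673 ± 23.6 TPM in MS023 (SD, n = 3). These are RNA values, and the paper reports from a western blot that PRMT1 was efficiently deleted after induction of this guide. Pearson's r across genes between replicates of a group was 0.993 to 0.996. Of 8 plasma cell markers 5 were above 1 TPM in every sample, while summed T cell and monocyte markers stayed at or under 0.736 and 3.00 TPM. EPCAM, an epithelial gene, was at 61.6 to 91.1 TPM by group mean. The control groups without and with Cas9 were not alike: the plasma cell gene MZB1 had a mean of 105 TPM in DMSO and 2.01 TPM in isgCtrl.

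The levels of the 39 genes covered a wide range. CYCS, which encodes cytochrome c, was the most abundant in each group, with 566.5 ± 13.3 TPM (SD, n = 3) in DMSO. BAX followed with 152 ± 12.7 TPM and MCL1 with 120.5 ± 3.77 TPM (SD, n = 3). Among the pro-survival BCL2 genes in DMSO the order was MCL1, BCL2L1 with 57.3 ± 1.97 TPM, BCL2 with 9.31 ± 0.399 TPM and BCL2L2 with 3.09 ± 0.242 TPM (SD, n = 3), and no neighbours in that order overlapped. BCL2L2 shares its exons with the annotated readthrough gene BCL2L2-PABPN1, which had up to 260.8% of its TPM in a sample, so its value is uncertain. BCL2A1, the pro-survival gene BFL1, was nearly silent, with 0.115, 0.190 and 0 TPM in DMSO, 0.106, 0.146 and 0 in MS023, 0.448, 0 and 0.146 in isgCtrl, and 0.0924, 0 and 0.0505 in PRMT1-KO. The effector BOK (0.0316 to 0.314 TPM) and the BH3-only gene HRK (0.00895 to 0.181 TPM) were as low, and these 3 genes were not tested.

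**Figure D1:**
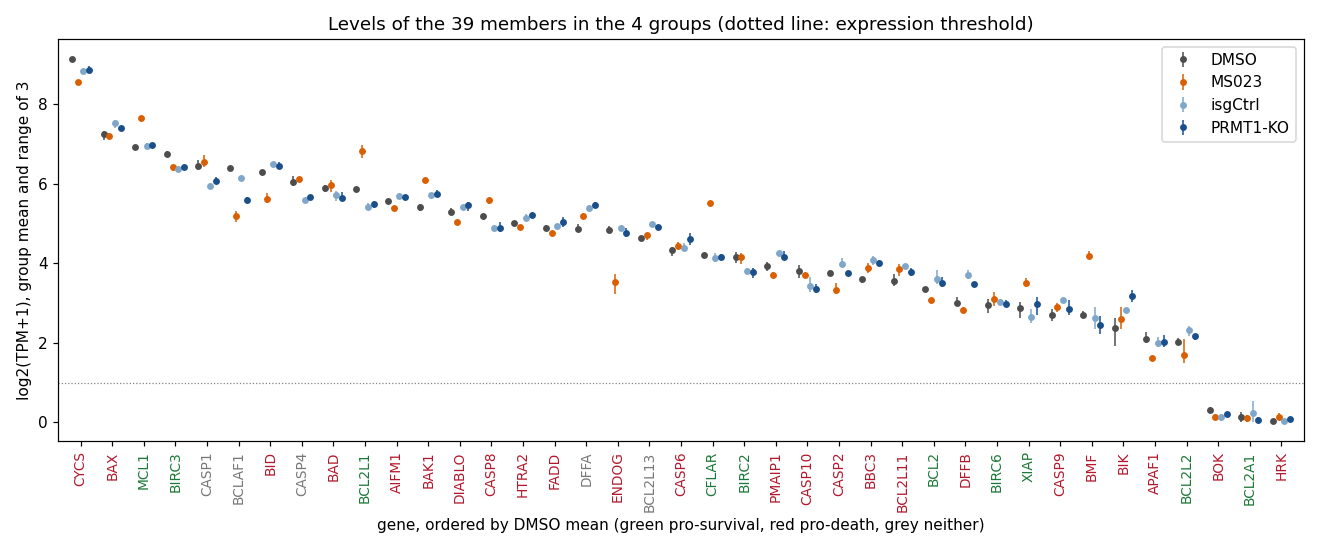
Levels of the 39 genes, in order of their DMSO mean. The y axis is log2(TPM+1), points are group means and vertical lines the range of 3 samples in DMSO, MS023, isgCtrl and PRMT1-KO, and the dotted line is the threshold of 1. Gene names are coloured by class, and BOK, BCL2A1 and HRK lie below the threshold in each group.

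With MS023, 11 of the 36 genes tested were called, 6 higher and 5 lower, or near the background of 30.9% of all genes tested (11.6% called higher and 19.3% called lower). The higher ones were the pro-survival genes BCL2L1, MCL1, XIAP and CFLAR and the pro-death genes BAK1 and BMF. The lower ones were the pro-death genes BID, APAF1, CYCS and ENDOG, and BCLAF1. Of the 9 pro-survival genes tested 4 were called, each of them higher. BIRC5, an inhibitor of apoptosis family gene that is not in this list, was called lower and is given with the other pathway genes below. Of the 22 pro-death genes tested 6 were called, 2 higher and 4 lower. An adjusted p under 0.05, whatever the fold change, was reached by 18 genes, 9 in each direction, beside 48.8% of all genes, and the DMSO and MS023 samples did not overlap for 22 genes, beside 59.5% of all genes.

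Scaling mattered for this comparison. The median log2 fold change of all genes tested was -0.111, and it became -0.004 when samples were scaled by median ratios. That scaling removes such a median by design. Whether the -0.111 is an offset common to all genes or a fall of many genes was not tested. After that scaling 10 genes were called, 7 higher and 3 lower. The shares of all genes given above are without scaling, so these counts have no background beside them. The 4 pro-survival genes, BAK1, BMF, BID, ENDOG and BCLAF1 were still called in the same direction, APAF1 and CYCS were not, and CASP8 was called as higher. The median log2 fold change was 0.148 for the pro-survival and -0.0896 for the pro-death genes, and with the scaling 0.253 and 0.0243. The pro-survival median rests on few genes, and was 0.238 and 0.223 without MS023 replicate 1 or DMSO replicate 1, and 0.0643 and 0.0490 without MS023 replicate 3 or DMSO replicate 2. In bulk RNA, fewer cells with a transcript and less of it per cell cannot be told apart.

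In PRMT1-KO, 1 of the 36 genes was called, BCLAF1, which was lower, beside 0.781% of all genes tested. No pro-survival gene and no pro-death gene was called in limma. At an unadjusted p under 0.05 there were 5 genes, BIK, BCL2L11, CASP2, DFFB and BCLAF1, and 18.6% of all genes passed that threshold. The isgCtrl and PRMT1-KO samples did not overlap for 6 of the 36, beside 26.7% of all genes. The median log2 fold change was 0.0164 for the pro-survival and -0.0487 for the pro-death genes, with -0.0382 for all genes tested. For 31 of the 36 genes the 95% interval of the log2 fold change lay within 0.48 in both directions, and over the 35 genes not called the interval bounds ran from -0.581 for BMF to 0.704 for XIAP.

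**Figure D2:**
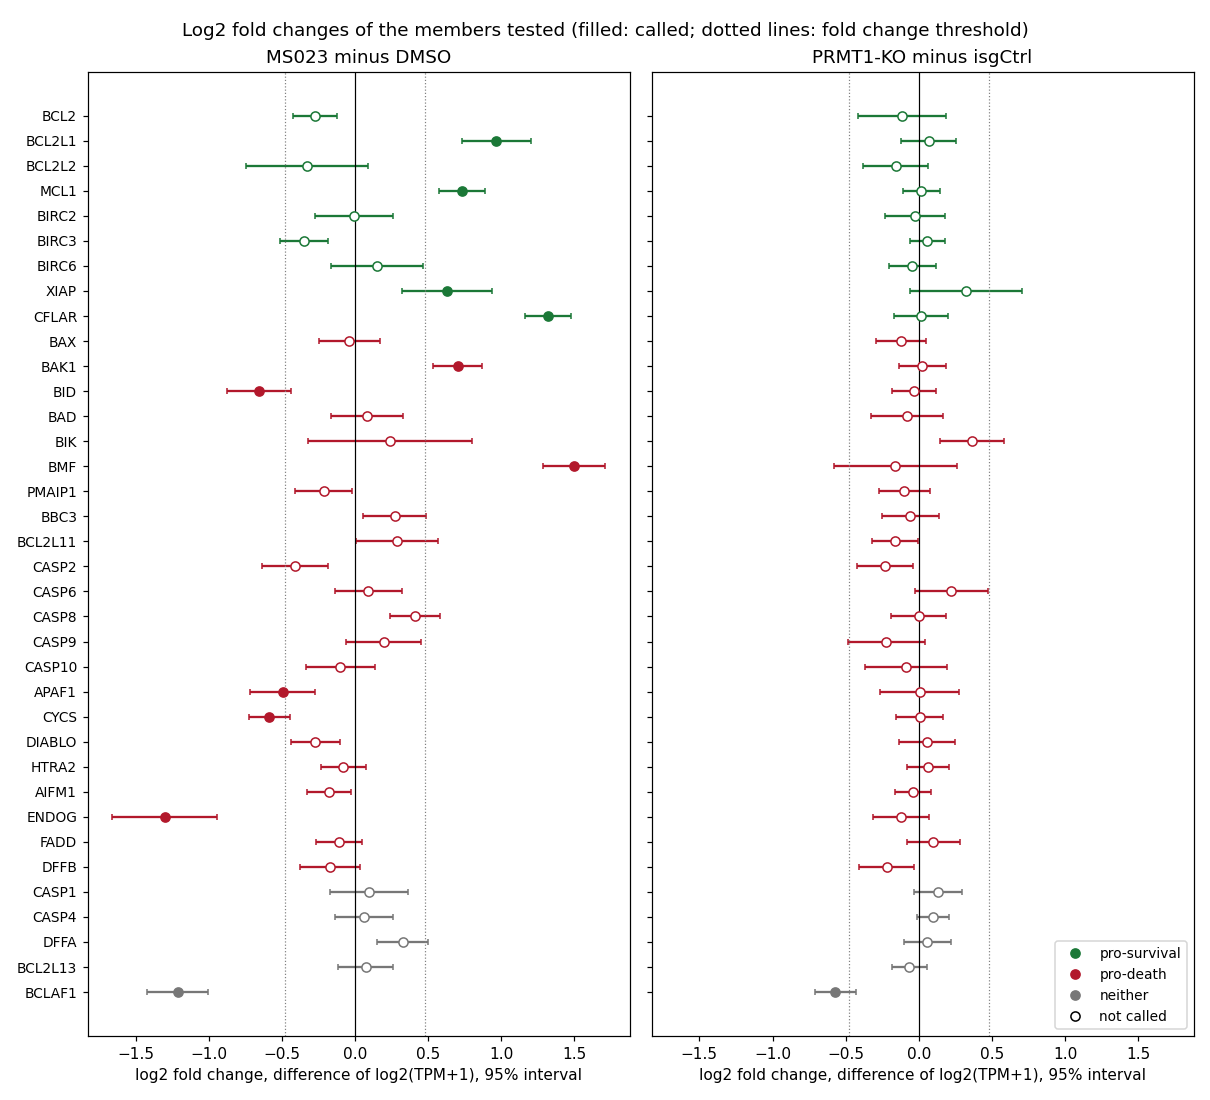
Log2 fold changes of the 36 genes tested, with 95% intervals, for MS023 minus DMSO (left) and PRMT1-KO minus isgCtrl (right). The x axis is the difference of log2(TPM+1), filled points are called genes, dotted lines mark the fold change threshold of 0.48, and colours mark the class. On the left 11 points are filled and on the right 1, BCLAF1.

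BCL2L1 encodes BCL-XL, a pro-survival protein of the outer mitochondrial membrane. In GRCh38, the build of all positions here, the gene spans 31664452 to 31723989 on the minus strand of chromosome 20. Its log2(TPM+1) was 5.92, 5.82 and 5.86 in DMSO and 6.84, 6.66 and 6.99 in MS023. All MS023 samples lay above all DMSO samples, and TPM rose from 57.3 ± 1.97 to 113 ± 12.9 (SD, n = 3), with a log2 fold change of 0.97 ± 0.10 (SE, adjusted p = 6.9e-04). In isgCtrl BCL2L1 was 5.42, 5.34 and 5.52, and in PRMT1-KO 5.57, 5.39 and 5.51. These groups overlapped, with a log2 fold change of 0.07 and a 95% interval of -0.12 to 0.25.

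MCL1, the short-lived pro-survival protein on which plasma cells depend, lies on chromosome 1 from 150560895 to 150579738 on the minus strand. Its log2(TPM+1) was 6.89, 6.97 and 6.91 in DMSO and 7.66, 7.60 and 7.72 in MS023. The MS023 samples were the higher 3 of the 6, with 201 ± 8.33 TPM (SD, n = 3) and a log2 fold change of 0.73 ± 0.07 (SE, adjusted p = 4.5e-04). With the guides MCL1 was 6.96, 6.91 and 7.02 in isgCtrl and 6.98, 6.99 and 6.97 in PRMT1-KO. The PRMT1-KO samples lay inside the range of the control, and the 95% interval of the difference was -0.11 to 0.14.

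BCL2 is the founding member of the family. It was 3.39, 3.40 and 3.30 in DMSO and 3.06, 3.11 and 3.10 in MS023. The samples did not overlap, but the log2 fold change of -0.27 ± 0.06 (SE, adjusted p = 0.013) was under the fold change threshold. In isgCtrl BCL2 was 3.53, 3.48 and 3.84 and in PRMT1-KO 3.40, 3.44 and 3.66, with overlap (log2 fold change -0.12, adjusted p = 0.650). BCL2L2, which encodes BCL-W, had means of 2.03 in DMSO and 1.70 in MS023, and its samples overlapped.

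Among the inhibitors of caspases and of the receptor complex, CFLAR had the largest difference between DMSO and MS023. It encodes FLIP, which competes with CASP8 for the death receptor complex. Its log2(TPM+1) was 4.24, 4.17 and 4.21 in DMSO and 5.56, 5.45 and 5.56 in MS023, or 17.5 ± 0.444 against 45.1 ± 2.01 TPM (SD, n = 3). The groups were far apart for their spread, with a log2 fold change of 1.32 ± 0.06 (SE, adjusted p = 8.3e-05). In isgCtrl CFLAR was 4.25, 4.16 and 4.03 and in PRMT1-KO 4.17, 4.23 and 4.09, with overlap and a 95% interval of the difference of -0.17 to 0.20.

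XIAP, which binds and blocks caspases directly, was lower in level and more variable. It lies on chromosome X from 123859712 to 123913972 on the plus strand. Its values were 3.03, 2.94 and 2.63 in DMSO and 3.42, 3.45 and 3.63 in MS023, without overlap (log2 fold change 0.63 ± 0.13 SE, adjusted p = 0.00829). In isgCtrl XIAP was 2.50, 2.59 and 2.86 and in PRMT1-KO 2.69, 3.15 and 3.09. There PRMT1-KO replicate 1 fell inside the control range, and the log2 fold change of 0.32 (95% interval -0.06 to 0.70) did not pass. The ubiquitin ligases BIRC2 and BIRC3 (cIAP1 and cIAP2) and BIRC6 were not called. BIRC3 was the most abundant of them, with 6.76 ± 0.07 in DMSO and 6.41 ± 0.05 in MS023 (SD, n = 3) and a log2 fold change of -0.35 (adjusted p = 0.0074), under the fold change threshold.

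The effectors BAX and BAK1 differed from each other with MS023. BAX was 7.11, 7.31 and 7.33 in DMSO and 7.24, 7.13 and 7.27 in MS023. These values overlapped, with a log2 fold change of -0.04 (95% interval -0.25 to 0.17) that was positive with median-ratio scaling. BAK1 was 5.49, 5.32 and 5.42 in DMSO and 6.08, 6.14 and 6.10 in MS023. Each MS023 sample was above each DMSO sample for BAK1, which lies on chromosome 6 from 33572547 to 33580293 on the minus strand, and the log2 fold change was 0.70 ± 0.07 (SE, adjusted p = 6.5e-04).

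In the cells with guides neither effector was called. BAX was 7.41, 7.55 and 7.61 in isgCtrl and 7.34, 7.42 and 7.45 in PRMT1-KO. BAK1 was 5.70, 5.71 and 5.78 in isgCtrl and 5.75, 5.85 and 5.66 in PRMT1-KO. Both genes overlapped between the groups, and the 95% interval of the log2 fold change was -0.30 to 0.05 for BAX and -0.14 to 0.18 for BAK1.

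BH3-only genes were called in both directions with MS023. BMF, a BH3-only protein that can be held at the cytoskeleton, had the largest log2 fold change of the 36 genes. The gene is on chromosome 15 from 40087890 to 40108892 on the minus strand. Its log2(TPM+1) was 2.65, 2.81 and 2.64 in DMSO and 4.32, 4.15 and 4.13 in MS023, or 5.50 ± 0.431 against 17.4 ± 1.39 TPM (SD, n = 3). No sample came near the other group, and the log2 fold change was 1.50 ± 0.09 (SE, adjusted p = 1.2e-04). In isgCtrl BMF was 2.60, 2.36 and 2.90 and in PRMT1-KO 2.23, 2.46 and 2.67, with overlap. The log2 fold change there was -0.16 with a 95% interval of -0.58 to 0.26.

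BID links the receptor route to the mitochondria after it is cut by CASP8. It lies on chromosome 22 from 17734138 to 17774770 on the minus strand. BID was 6.21, 6.35 and 6.30 in DMSO and 5.60, 5.78 and 5.51 in MS023, and fell from 77.0 ± 3.63 to 48.6 ± 4.76 TPM (SD, n = 3). The groups did not overlap (log2 fold change -0.66 ± 0.09 SE, adjusted p = 0.00206). In isgCtrl BID was 6.48, 6.46 and 6.54 and in PRMT1-KO 6.44, 6.55 and 6.39, a range that included the control.

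The activators and sensitisers best known from stress responses were not called in either comparison. BCL2L11 was 3.42, 3.72 and 3.55 in DMSO and 3.90, 3.68 and 3.98 in MS023 (log2 fold change 0.29, adjusted p = 0.0852), with MS023 replicate 2 below DMSO replicate 2. PMAIP1 was 3.96, 4.03 and 3.81 in DMSO and 3.68, 3.78 and 3.69 in MS023 (log2 fold change -0.21, adjusted p = 0.0691). BBC3 was 3.51, 3.67 and 3.62 in DMSO and 4.0, 3.86 and 3.76 in MS023, without overlap but under the fold change threshold (log2 fold change 0.27, adjusted p = 0.0455). Thus BBC3 passed on p alone, and BCL2L11 and PMAIP1 passed on neither. With median-ratio scaling BCL2L11 passed on p as well (log2 fold change 0.40, adjusted p = 0.0267 in limma) and was still not called.

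In the cells with guides the values of these genes lay closer together. BCL2L11 was 3.93, 3.96 and 3.94 in isgCtrl and 3.78, 3.88 and 3.69 in PRMT1-KO, all below the control (log2 fold change -0.16, adjusted p = 0.255). PMAIP1 was 4.28, 4.26 and 4.27 in isgCtrl and 4.12, 4.08 and 4.31 in PRMT1-KO, with overlap. BBC3 was 3.95, 4.09 and 4.19 in isgCtrl and 4.08, 4.04 and 3.94 in PRMT1-KO, also with overlap. BIK, a BH3-only protein of the endoplasmic reticulum, had the largest positive difference, from 2.83 ± 0.05 to 3.19 ± 0.16 (SD, n = 3). Its log2 fold change of 0.36 had an adjusted p of 0.126. BAD had log2 fold changes of 0.08 with MS023 and -0.08 in PRMT1-KO, with overlap in both.

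**Figure D3:**
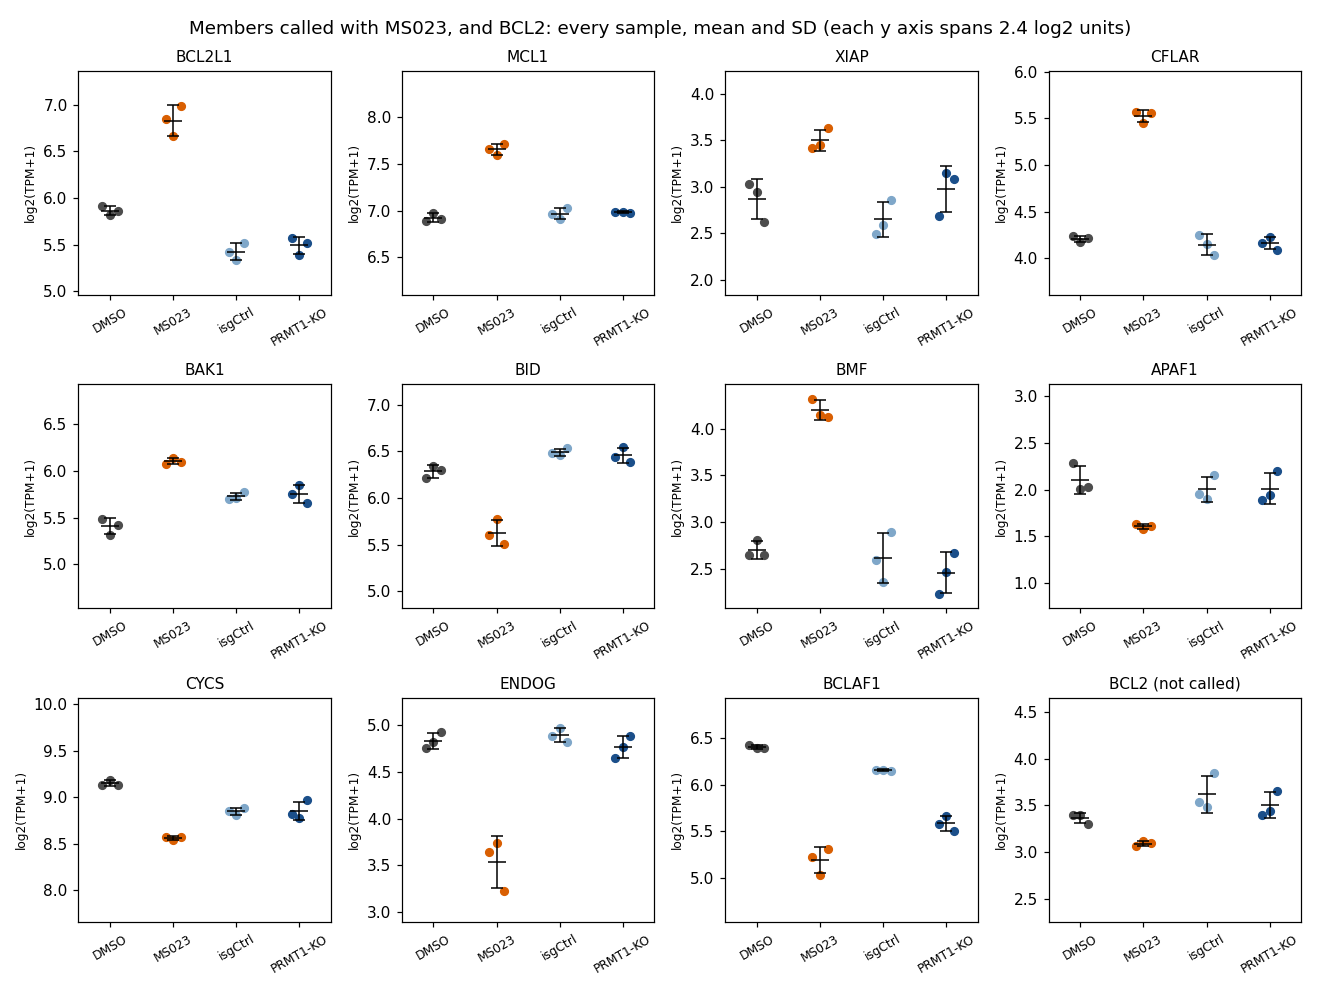
Values of the 11 genes called with MS023, and of BCL2, in every sample. The y axis is log2(TPM+1), points are the 3 samples of DMSO, MS023, isgCtrl and PRMT1-KO, and bars are the mean and SD. All y axes span the same range, MS023 samples stand apart from DMSO samples in each panel, and isgCtrl and PRMT1-KO samples stand apart in the BCLAF1 panel.

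Not one of the 5 apoptotic caspases was called by limma in either comparison. At an unadjusted p under 0.05 there were 2 with MS023, CASP2 and CASP8, and 1 in PRMT1-KO, CASP2, beside 56.5% and 18.6% of all genes. CASP8, the initiator at death receptors, was 5.23, 5.18 and 5.15 in DMSO and 5.65, 5.50 and 5.64 in MS023. The samples did not overlap, the log2 fold change was 0.41 ± 0.07 (SE, adjusted p = 0.0045), and CASP8 was called at 0.53 with median-ratio scaling. In isgCtrl it was 4.86, 4.90 and 4.90 and in PRMT1-KO 4.78, 5.03 and 4.84, on both sides of the control. CASP2, the caspase of the PIDDosome, was lower with MS023 at a size under the threshold, with means of 3.75 and 3.34 (log2 fold change -0.41, adjusted p = 0.0125). CASP6, CASP9 and CASP10 had log2 fold changes of 0.09, 0.20 and -0.10 with MS023, each with overlap.

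CFLAR, CASP10 and CASP8 are neighbours on chromosome 2, in this order on the plus strand, with gaps of 6.18 and 4.01 kb between them. CFLAR spans 201116154 to 201176687, CASP10 spans 201182872 to 201229428 and CASP8 spans 201233443 to 201361836. Their log2 fold changes with MS023 were 1.32, -0.10 and 0.41, so the gene in the middle did not follow the outer ones. BIRC3 and BIRC2, 7.81 kb apart on chromosome 11, had log2 fold changes of -0.35 and -0.01.

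Of the 7 genes of the apoptosome, the mitochondrial intermembrane space and the receptor adaptor, 3 were called with MS023, each lower, beside 19.3% of all genes called lower, and with so few genes this is 1 or 2 genes from that share. Their median log2 fold change was -0.271, and -0.155 with median-ratio scaling, under which ENDOG alone was called and HTRA2 and FADD had small positive values. ENDOG encodes endonuclease G, a mitochondrial nuclease that can enter the nucleus in cell death. It lies on chromosome 9 from 128818500 to 128822676 on the plus strand. Its log2(TPM+1) was 4.75, 4.82 and 4.93 in DMSO and 3.64, 3.74 and 3.22 in MS023. MS023 replicate 3 was the lowest, and the mean was 38.9% of the DMSO mean in TPM (log2 fold change -1.30 ± 0.15 SE, adjusted p = 0.00101). In isgCtrl ENDOG was 4.89, 4.97 and 4.83 and in PRMT1-KO 4.66, 4.77 and 4.89, with overlap.

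CYCS was 9.13, 9.19 and 9.13 in DMSO and 8.58, 8.54 and 8.57 in MS023. The spread within each group was small beside the distance, with 566.5 ± 13.3 against 377 ± 4.56 TPM (SD, n = 3) and a log2 fold change of -0.59 ± 0.06 (SE, adjusted p = 6.4e-04). With median-ratio scaling it was -0.47, past the p threshold and short of the fold change threshold. In isgCtrl CYCS was 8.85, 8.81 and 8.89 and in PRMT1-KO 8.82, 8.78 and 8.97, with PRMT1-KO samples on both sides of the control. CYCS lies on chromosome 7 from 25118656 to 25125260 on the minus strand and has 41 annotated pseudogenes in the files, whose summed TPM stayed at or under 0.992% of its own.

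APAF1, the scaffold of the apoptosome, was near the lower end of expression. It was 2.28, 2.0 and 2.03 in DMSO and 1.63, 1.58 and 1.61 in MS023, without overlap (log2 fold change -0.49 ± 0.09 SE, adjusted p = 0.00627). The value is close to the fold change threshold, and APAF1 was not called without DMSO replicate 1 (-0.41), without MS023 replicate 2 (-0.48) or with median-ratio scaling (-0.41). In isgCtrl it was 1.96, 1.90 and 2.15 and in PRMT1-KO 1.89, 1.94 and 2.20, a range that included the control. The gene lies on chromosome 12 from 98645290 to 98735433 on the plus strand. The XIAP antagonist DIABLO (SMAC) had a log2 fold change of -0.27 with MS023 (adjusted p = 0.019), under the fold change threshold, and HTRA2, AIFM1 and FADD had -0.08, -0.18 and -0.11.

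CYCS and ENDOG are 2 nuclear genes for mitochondrial proteins that were both lower with MS023, and their promoters are shown to let a reader see what the start regions hold. The 250 bases before the RefSeq start in GRCh38.p14 are given 5′ to 3′ on the strand of the gene, at chr7:25125261-25125510 on the minus strand for CYCS and chr9:128818250-128818499 on the plus strand for ENDOG. Capitals mark CCAAT or its reverse complement, the box bound by NF-Y, and in CYCS also TGACGT in reverse complement, the core of a cAMP response element.
CYCS: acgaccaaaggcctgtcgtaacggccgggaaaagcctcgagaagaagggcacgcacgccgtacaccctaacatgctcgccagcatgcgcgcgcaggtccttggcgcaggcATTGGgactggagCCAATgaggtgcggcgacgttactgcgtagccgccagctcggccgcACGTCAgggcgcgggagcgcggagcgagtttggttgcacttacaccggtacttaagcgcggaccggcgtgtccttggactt
ENDOG: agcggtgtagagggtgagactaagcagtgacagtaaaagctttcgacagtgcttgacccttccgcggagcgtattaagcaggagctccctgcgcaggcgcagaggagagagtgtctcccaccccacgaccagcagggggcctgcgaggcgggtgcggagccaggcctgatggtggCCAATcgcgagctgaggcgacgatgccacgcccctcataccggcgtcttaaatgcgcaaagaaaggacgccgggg
CCAAT on either strand was in 32.7% of 27305 promoters of this length. Among the 39 genes it was in 13 of the 33 that had an entry. Besides CYCS and ENDOG, the called genes with it were APAF1, lower with MS023, and BAK1, higher with MS023. BID and BCLAF1, called lower, did not have it, nor did BCL2L1, XIAP, CFLAR and BMF, called higher. TGACGT was in 7.16% of all promoters and in 4 of the 33. These matches describe the letters and are not binding sites shown by data.

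BCLAF1 was the one gene called in both comparisons. It encodes a nuclear protein first found as a BCL2-associated factor and also linked to RNA processing. The gene lies on chromosome 6 from 136256627 to 136289851 on the minus strand. Its log2(TPM+1) was 6.43, 6.39 and 6.39 in DMSO and 5.23, 5.04 and 5.31 in MS023, or 42.6% of the DMSO mean in TPM. The groups were more than a full log2 unit apart, with a log2 fold change of -1.21 ± 0.09 (SE, adjusted p = 2.2e-04).

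In the cells with guides BCLAF1 was 6.16, 6.16 and 6.14 in isgCtrl and 5.58, 5.66 and 5.51 in PRMT1-KO, or 66.9% of the control. The control samples lay within a narrow range and all PRMT1-KO samples were below it, with a log2 fold change of -0.57 ± 0.06 (SE, adjusted p = 0.0285). The exact two-sided permutation p was 0.1, the smallest that 3 against 3 allow. The value without any 1 of the 6 samples stayed between -0.61 and -0.53, and the adjusted p was then 0.0895 to 0.107, so the call needs all 6 samples. The 2 pseudogenes of BCLAF1 had at most 0.117% of its TPM.

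Of the remaining genes in neither class, none was called in these comparisons. CASP1 and CASP4 had log2 fold changes of 0.10 and 0.06 with MS023, and CASP1 shares sequence with CARD16 and its relatives, which had up to 56.7% of its TPM. DFFA, the inhibitor and chaperone of the DNA-cutting nuclease DFFB, was 4.87 ± 0.09 in DMSO and 5.20 ± 0.04 in MS023 (SD, n = 3), with a log2 fold change of 0.32 (adjusted p = 0.0119) under the fold change threshold. DFFB itself had -0.17 with MS023 and -0.22 in PRMT1-KO. BCL2L13, a mitochondrial BCL2 relative, had 0.07 and -0.06.

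Pro-survival and pro-death genes were also set beside each other within a sample, as a description with no test. The mean log2(TPM+1) of the 9 pro-survival genes tested was 4.35 ± 0.06 in DMSO and 4.66 ± 0.06 in MS023, while isgCtrl had 4.26 ± 0.07 and PRMT1-KO 4.28 ± 0.02 (SD, n = 3). For the 22 pro-death genes it was 4.58 ± 0.01 in DMSO and 4.54 ± 0.03 in MS023, while isgCtrl had 4.71 ± 0.04 and PRMT1-KO 4.67 ± 0.02 (SD, n = 3). The pro-survival mean was thus higher in each MS023 sample than in each DMSO sample, and the pro-death means of the samples overlapped in both comparisons. In both comparisons that overlap was narrow without scaling. MS023 replicate 2 had 4.568, above 4.566 in DMSO replicate 1, and PRMT1-KO replicate 2 had 4.689, above 4.687 in isgCtrl replicate 2. As summed TPM, in which abundant genes weigh most, the pro-death genes did not overlap, with 1187 to 1239 in DMSO and 1001 to 1015 in MS023. Most of that fall was the fall of CYCS alone, which was at 66.6% of its DMSO mean in TPM. These sums are without scaling. The pro-survival sums were 341 to 353 in DMSO and 467 to 515 in MS023.

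A difference between 2 genes of a sample does not move when the sample is scaled as a whole, as long as both are well above 1 TPM. BAX minus BCL2 was 3.89 ± 0.16 in DMSO and 4.12 ± 0.09 in MS023, and BAK1 minus MCL1 was -1.52 ± 0.13 in DMSO and -1.55 ± 0.08 in MS023 (SD, n = 3). BAK1 and MCL1 thus kept their distance, since both were higher with the inhibitor. Differences between BH3-only and pro-survival genes went in both directions with MS023. PMAIP1 minus MCL1 was -2.99 ± 0.10 in DMSO and -3.94 ± 0.11 in MS023, BCL2L11 minus MCL1 was -3.36 ± 0.11 and -3.80 ± 0.10, and BCL2L11 minus BCL2L1 was -2.30 ± 0.20 and -2.98 ± 0.03 (SD, n = 3). For these 3 pairs all MS023 samples were lower than all DMSO samples. Further pairs, looked at after the values were seen, were higher in all MS023 samples than in all DMSO samples. BMF minus MCL1 was -4.23 ± 0.05 in DMSO and -3.46 ± 0.13 in MS023, BMF minus BCL2L1 was -3.17 ± 0.14 and -2.63 ± 0.20, BCL2L11 minus BCL2 was 0.20 ± 0.15 and 0.76 ± 0.17, and BBC3 minus BCL2 was 0.23 ± 0.11 and 0.78 ± 0.15 (SD, n = 3).

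Between isgCtrl and PRMT1-KO the first 5 of these differences shifted less. BAX minus BCL2 shifted by -0.007 and BAK1 minus MCL1 by 0.006. The shift was -0.12 for PMAIP1 minus MCL1, -0.18 for BCL2L11 minus MCL1 and -0.23 for BCL2L11 minus BCL2L1. In size each of these was smaller than the shift of the same pair with MS023, and the difference between the shifts was not tested.

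**Figure D4:**
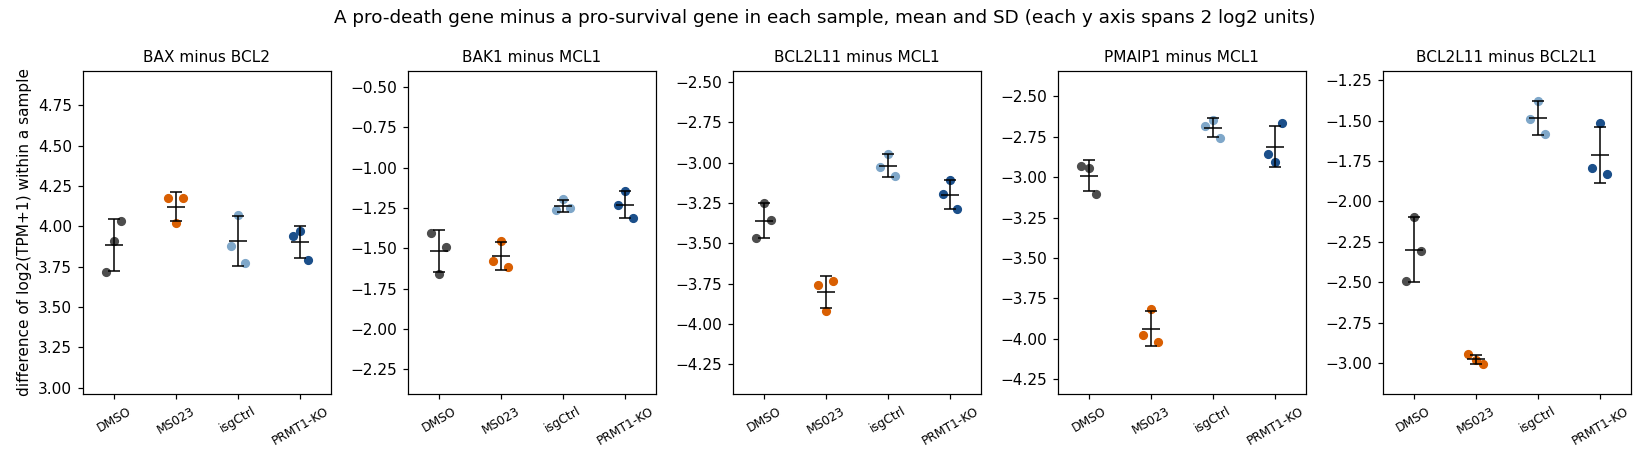
A pro-death gene minus a pro-survival gene in each sample. The y axis is the difference of log2(TPM+1) within a sample, points are the 3 samples of DMSO, MS023, isgCtrl and PRMT1-KO, and bars are the mean and SD. PMAIP1 minus MCL1 has a mean of -2.99 in DMSO and -3.94 in MS023.

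All 12 samples were fitted together to ask whether MS023 and PRMT1-KO had different effects. Of the 36 genes 10 differed by the same thresholds, beside 24.4% of all genes tested. They were BCL2L1, MCL1, CFLAR, BAK1 and BMF, more positive with MS023, and BID, APAF1, CYCS, ENDOG and BCLAF1, more negative with MS023. The largest difference was that of BMF (1.66 ± 0.20 SE, adjusted p = 1.8e-04). BCLAF1, lower in both comparisons, was lower by a further -0.64 ± 0.10 with MS023 (SE, adjusted p = 8.1e-04). XIAP was called with MS023 and not in PRMT1-KO, but the difference between the effects was 0.31 ± 0.21 (SE, adjusted p = 0.293) and did not pass. BCL2 too did not differ in this test (-0.16, adjusted p = 0.414). With median-ratio scaling 12 genes were called, 8 more positive and 4 more negative with MS023. The share of all genes above is without that scaling. APAF1 lost its call (-0.43), and the pro-death genes BCL2L11 (0.55), CASP8 (0.52) and CASP9 (0.51) gained one.

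The control cells were not at the same level for all of these genes. Between isgCtrl and DMSO, groups that differ in Cas9, guide vector, doxycycline and vehicle at once, 3 of 36 genes were called, beside 13.9% of all genes. DFFB was higher in isgCtrl (log2 fold change 0.69, adjusted p = 0.00481), DFFA was higher (0.53, adjusted p = 0.00464) and CASP1 was lower (-0.50, adjusted p = 0.00773). Without DMSO replicate 3 there were 5, with BBC3 and CASP4 added. An adjusted p under 0.05 was reached by 17, beside 34.5% of all genes, among them BCL2L1 (-0.44), PMAIP1 (0.34), BBC3 (0.48), BCL2L11 (0.38) and BAK1 (0.32). With median-ratio scaling 4 were called, 1 higher and 3 lower, in place of 2 higher and 1 lower. DFFA lost its call (0.44), and BCL2L1 (-0.52) and CASP4 (-0.55) gained one as lower. The shares of all genes above are without that scaling. The DMSO samples are shared by this comparison and that of MS023.

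Among 45 other genes of the pathway, 33 were tested with MS023 and 13 were called, 8 higher and 5 lower, beside 30.9% of all genes called, 11.6% higher and 19.3% lower. The 6 with the largest changes were BIRC5, TNFRSF10B, ZBP1, TNFRSF10D, RIPK3 and PIDD1. BIRC5 encodes survivin, an inhibitor of apoptosis family member that works in mitosis, and was 53.7 ± 2.86 TPM in DMSO and 21.6 ± 0.573 TPM in MS023 (log2 fold change -1.28, adjusted p = 9.4e-05). TNFRSF10B, the TRAIL receptor DR5, was 1.76 ± 0.206 and 5.25 ± 0.327 TPM (log2 fold change 1.18, adjusted p = 2.2e-04). TNFRSF10D, a TRAIL receptor that does not signal death, was 1.21 ± 0.102 and 3.06 ± 0.144 TPM (log2 fold change 0.88, adjusted p = 2.7e-04).

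Of the death receptors, ligands and adaptors on that list, 8 were tested and 4 called, each higher with MS023, beside the 11.6% of all genes called higher. ZBP1, a sensor that starts necroptosis through RIPK3, was 6.26 ± 1.18 TPM in DMSO and 15.3 ± 3.21 TPM in MS023 (log2 fold change 1.16, adjusted p = 0.00289). RIPK3, the kinase itself, was low at 0.190 ± 0.0707 and 1.14 ± 0.153 TPM (log2 fold change 0.85, adjusted p = 6.4e-04). PIDD1, the scaffold that CASP2 is activated on, was 15.2 ± 1.37 and 8.77 ± 1.42 TPM (log2 fold change -0.73, adjusted p = 0.00471). In PRMT1-KO 30 of the 45 were tested and none was called by limma, beside 0.781% of all genes, while 7 had an unadjusted p under 0.05, beside 18.6% of all genes. TNFRSF10B had the largest difference of these, with 0.800 ± 0.0795 TPM in isgCtrl and 1.37 ± 0.145 TPM in PRMT1-KO (log2 fold change 0.40, adjusted p = 0.0637).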

How the data were processed

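Gene expression was measured by RNA-seq in 12 JJN3 samples. By the study's methods and the submitters' processing notes, Trimmomatic was used for trimming, STAR for mapping to hg38 and Salmon for quantification, and the authors deposited log2(TPM+1) per gene. These log2 values were used as deposited, and nothing upstream was run again. TPM sum to a fixed total, so the depth of a sample is unknown here and no count model or counting interval was used.

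Groups came from the labels. MS023 was compared with DMSO, PRMT1-KO with isgCtrl and isgCtrl with DMSO, and the first effect with the second. Genes with a group mean above 1 in either group were fitted with limma 3.58.1 in R 4.3.3 (eBayes without trend), with Benjamini-Hochberg adjustment over all genes tested. Called genes had a log2 fold change above 0.48 in size with an adjusted p under 0.05. Code was tested on simulated data. Gene positions are from GENCODE v44 (GRCh38) and promoters from RefSeq (GRCh38.p14).

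The members, roles and lists were chosen with earlier results of these data known. Values per sample are given for members called with MS023 or in PRMT1-KO and for BCL2, BCL2L1, MCL1, BCL2A1, BAX, BAK1, BCL2L11, PMAIP1, BBC3, XIAP and CASP8. Of other pathway genes, the 6 called with the largest changes are named. BIK and, in PRMT1-KO, TNFRSF10B were named after their values were seen. Alternatives covered the filter, pseudocount, scaling, variance trend, replicate block, fold change threshold, samples in the fit and leaving out each replicate.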

Additional observations from a re-analysis of the deposited data

Results flagged for a closer look

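For 10 of the 36 genes tested the effect of MS023 differed from that of PRMT1-KO in limma over all 12 samples (adjusted p under 0.05 and an absolute difference above 0.48). By the same thresholds 24.4% of all genes tested differed, so the count is near the background. The difference of the log2 fold changes, MS023 minus PRMT1-KO, was 1.66 for BMF, 1.30 for CFLAR, 0.90 for BCL2L1, 0.71 for MCL1 and 0.68 for BAK1. It was -1.18 for ENDOG, -0.64 for BCLAF1, -0.62 for BID, -0.59 for CYCS and -0.50 for APAF1. The adjusted p were between 6.7e-06 for CFLAR and 0.0233 for APAF1. With median-ratio scaling 12 genes differed, without APAF1 and with BCL2L11, CASP8 and CASP9 added as more positive with MS023. The share of all genes is without that scaling. The MS023 and DMSO cells carried no Cas9 or guide and the other cells did. MS023 inhibits the type I enzymes as a class, while the guide targets PRMT1 alone, in a population that kept part of its PRMT1 RNA. That RNA does not give the protein left, and the paper reports efficient deletion of PRMT1 with this guide by western blot. Cell background, the enzymes affected and the extent of PRMT1 loss cannot be told apart in these differences.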

How the results depend on the processing

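Counts of called members followed the fold change threshold. Without one, 18 were called with MS023 and 17 in isgCtrl against DMSO, and with an absolute log2 fold change above 1 there were 4 with MS023, 0 in PRMT1-KO, 0 in isgCtrl against DMSO and 3 for MS023 minus PRMT1-KO. Leaving out single replicates gave 10 to 12 members with MS023, 0 in PRMT1-KO (where the adjusted p of BCLAF1 was 0.0895 to 0.107), 2 to 5 in isgCtrl against DMSO (5 without DMSO replicate 3) and 9 to 13 for MS023 minus PRMT1-KO. Over all genes the PRMT1-KO calls went from 96 to 46 with all genes above 0 fitted, to 157 without a fold change threshold, to 9 above 1 and to 2 to 21 with single replicates left out. For MS023 they went from 3986 to 6300 without a threshold and to 1083 above 1, for isgCtrl against DMSO from 1763 to 4373 and 369, and for MS023 minus PRMT1-KO from 3231 to 921 above 1. Same-numbered replicates deviated together only weakly (r of 0.038, 0.090 and 0.121 between MS023 and DMSO, and -0.138, 0.085 and -0.073 between PRMT1-KO and isgCtrl), although each of the 6 MS023 and DMSO samples correlated best with its own number, and the labels give no more than the number. With the replicate number as a block, 11 members were called with MS023, 3 in isgCtrl against DMSO, 10 for MS023 minus PRMT1-KO and 0 in PRMT1-KO, where 0 of all genes were called and BCLAF1 had an adjusted p of 0.168 in limma.

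The median log2 fold change of the pro-survival members with MS023 was 0.0701 with all genes above 0 fitted, which adds BCL2A1, 0.253 with median-ratio scaling and 0.0490 to 0.238 with single replicates left out. That of the pro-death members was 0.0243 with median-ratio scaling for MS023, and in PRMT1-KO it was -0.0118 with that scaling and -0.0548 to -0.0149 with single replicates left out. Single members whose sign changed were not called in any of these settings. With median-ratio scaling they were BAX (0.0814), BIRC2 (0.106), CASP10 (0.0119), HTRA2 (0.0367) and FADD (0.00338) with MS023, and BID (0.00523), CASP8 (0.0365) and BIRC2 (0.0106) in PRMT1-KO. Of the members with values per sample, with single replicates left out, BAX with MS023 ran from -0.109 to 0.00261. In PRMT1-KO the ranges were -0.0120 to 0.0462 for MCL1, -0.0402 to 0.0696 for CFLAR, -0.0878 to 0.0806 for APAF1, -0.0244 to 0.0700 for BAK1, -0.0767 to 0.00275 for BID, -0.0499 to 0.0428 for CYCS, -0.121 to 6.6e-06 for BBC3 and -0.0754 to 0.0513 for CASP8. For the 11 members called with MS023, 128 values under the alternatives other than the fold change threshold and the fit of all 12 samples kept the call and its direction, and the 4 that did not were the 3 of APAF1 and the 1 of CYCS given above. The read depth is unknown from TPM, so the precision rests on 3 samples a group.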
